A study of Mus musculus with 19 samples.

Results

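The genes described here encode the proteins of the cytosolic ribosome. They were chosen by symbol alone: protein-coding genes named Rpl or Rps followed by a number, with or without a final a or x, together with Rplp0, Rplp1 and Rplp2. The rule gave 75 genes of the 41388 in the count files, 46 of the large subunit and 29 of the small subunit, and used no measured value. Counts came from polyA RNA of 16 samples of FVB mice. Whole brains of embryos at 13.5 days post coitum (E13.5) came from males, 3 Wiz+/+ and 3 WizMommeD30/+, and from females, 2 of each genotype. Cerebellums came from adults at 56 days post partum, males by the study's methods, 3 of each genotype. WizMommeD30/+ mice are heterozygous for MommeD30, an inherited loss of function mutation of the zinc finger protein gene Wiz that is not limited to brain, and Wiz+/+ mice are the wildtype controls. By the study's methods the mutation was kept by crosses to Line3, an FVB/NJ strain with a GFP transgene under human α-globin control, which mice of both genotypes would carry. Nothing in the labels ties animals to litters or sequencing days, so the p-values measure the spread between these samples only.

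A ribosome is built from ribosomal RNA and a fixed set of these proteins, and cells that grow and divide make many ribosomes. The messenger RNAs of ribosomal proteins begin with a run of pyrimidines, the 5′ terminal oligopyrimidine (TOP) sequence, through which mTORC1 controls their translation. Their promoters are bound by general activators, and MYC is known to raise their transcription. In bulk tissue, fewer cells of a type and less RNA per cell cannot be told apart, and an RNA level does not measure ribosomes or protein.

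Libraries held 16386029 to 50459755 counts. Wiz itself was lower in every WizMommeD30/+ library than in any Wiz+/+ library of the same tissue and sex. Its level in CPM (a count relative to its library's total, after TMM adjustment) was 111.7 to 119.0 against 172.6 to 189.9 in male E13.5 brain, 120.0 to 121.7 against 175.8 to 183.9 in female E13.5 brain and 73.1 to 74.7 against 104.4 to 105.3 in cerebellum. The tissue labels held against their markers. The granule cell genes Gabra6 and Cbln3 averaged 979.7 and 1746 CPM in Wiz+/+ cerebellum and 0.00627 and 1.35 CPM in male Wiz+/+ E13.5 brain, whereas Neurog2, a gene of dividing neural precursors, averaged 0.243 and 89.6 CPM.

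The 5′ ends of 8 genes are shown because they stand at the 2 extremes of the tissue comparison reported below, the 4 with the smallest and the 4 with the largest difference among the 47 genes that have a single start site in the RefSeq promoter table. RefSeq (GRCm38.p6) held an entry for 55 of the 75 genes. Each sequence runs 5′ to 3′ on the transcript strand from 40 bases before to 20 bases after the annotated start, and capitals mark its longest run of C and T.

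Rpl38, chr11:114668540-114668599, plus strand: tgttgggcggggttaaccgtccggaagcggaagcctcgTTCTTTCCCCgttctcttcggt
Rps15, chr10:80292391-80292450, plus strand: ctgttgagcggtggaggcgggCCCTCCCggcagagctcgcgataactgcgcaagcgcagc
Rpl26, chr11:68901526-68901585, plus strand: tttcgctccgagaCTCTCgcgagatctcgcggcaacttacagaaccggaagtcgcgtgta
Rpl37, chr15:5116573-5116632, plus strand: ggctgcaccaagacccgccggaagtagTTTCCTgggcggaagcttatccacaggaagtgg
Rps12, chr10:23787190-23787249, minus strand: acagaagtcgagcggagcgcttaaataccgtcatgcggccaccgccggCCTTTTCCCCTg
Rps4x, chrX:102189372-102189431, minus strand: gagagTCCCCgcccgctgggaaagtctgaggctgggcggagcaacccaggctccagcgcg
Rps26, chr10:128626487-128626546, minus strand: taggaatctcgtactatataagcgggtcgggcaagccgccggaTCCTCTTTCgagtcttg
Rplp0, chr5:115559427-115559486, plus strand: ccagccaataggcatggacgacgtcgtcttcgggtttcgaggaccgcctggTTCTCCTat

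The longest pyrimidine runs were 11 bases in Rps12, where the run lies after the annotated start, and 10 bases in Rpl38, where it spans the start. The shortest were 5 bases in Rpl26 and Rps4x, where they lie upstream. Annotated starts need not be the start used in brain, so a run that lies away from the start says nothing of the messenger. For each gene in the table, the 300 bases of its first promoter entry were searched. CCGGAAG, a core of ETS family sites, was found on either strand in 21 of the 55 genes (38.2%) and in 9.12% of all 27025 genes. CTCTTTCC was found on the transcript strand in 7 of 55 genes (12.7%) and in 1.45% of all genes, AAGATGGC, a core of YY1 sites, on either strand in 4 (7.27%) and 2.88%, and TATAAA on the transcript strand in 5 (9.09%) and 8.88%. Among the 31 genes with an entry and a tissue difference above the median of the 75, 11 held CCGGAAG and 5 held TATAAA. CTCTTTCC was in 2 of them and AAGATGGC in 1. Among the other 24, 10 held CCGGAAG, 0 held TATAAA, 5 held CTCTTTCC and 3 held AAGATGGC. A match is a stretch of letters, not a bound site.

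All 75 genes had reads in all 16 samples, with at least 559 counts in any library. None was among the 50 genes with the most counts in any library, a ranking that is not adjusted for transcript length. Together they took 2.01% ± 0.0404 of counts (SD, n = 3) in male Wiz+/+ E13.5 brain and 0.762% ± 0.0176 (n = 3) in Wiz+/+ cerebellum. The single libraries were at 1.98%, 2.06% and 2.01% in the brain and 0.780%, 0.745% and 0.760% in the cerebellum, so the ranges lie far apart. The WizMommeD30/+ means were 1.97% ± 0.0193 in male brain and 0.744% ± 0.0150 in cerebellum (n = 3 each), and their ranges of 1.95% to 1.99% and 0.727% to 0.753% overlapped those of the controls. In female brain the share was 2.08% and 1.97% in the Wiz+/+ libraries and 2.19% and 1.97% in the WizMommeD30/+ libraries. Counting error is small at this depth: the widest 95% Wilson interval of a library's share was 0.00687 percentage points to either side, and it covers counting error only.

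**Figure D1:**
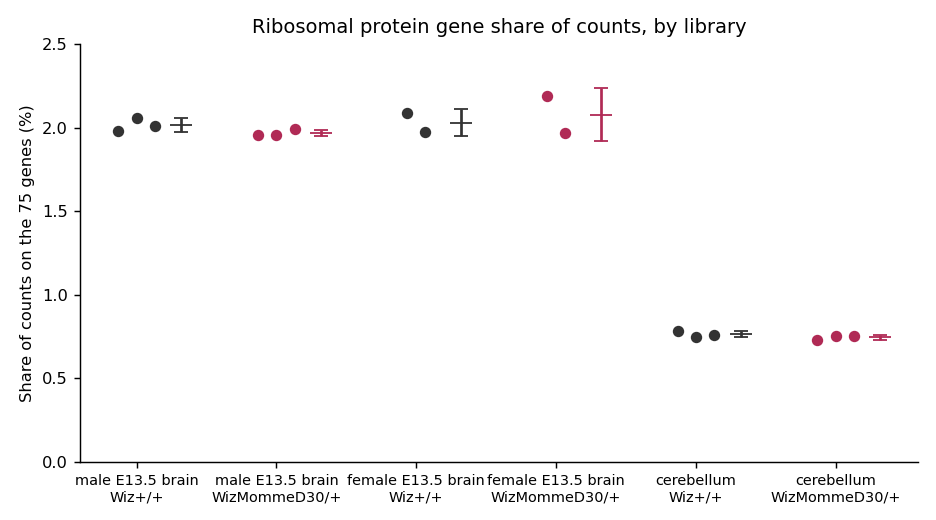
Share of all counts that fell on the 75 ribosomal protein genes, in percent, for each library (points) with the mean and SD of each group (bars); Wiz+/+ is in black and WizMommeD30/+ in red. The 10 E13.5 brain libraries lie between 1.95% and 2.19% and the 6 cerebellum libraries between 0.727% and 0.780%.

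Ribosomal protein genes have many processed pseudogenes, and a read that fits a gene and its copy can be counted for either, both or neither, depending on settings not given in the sources used here. To show where this matters, each 100-base window of a gene's principal transcript, the length of the study's reads, was searched for exact copies elsewhere in the GRCm38 chromosomes. Under 20% of windows were copied in 17 genes, and Rps3 and Rpl22 were among those with none. At least 90% were copied in 5 genes, led by Rps27 with 99.6% and Rps6 with 94.4%. Pseudogenes were picked by symbol, as genes that are not protein-coding and carry a ribosomal protein name with the suffix -ps. These 235 held counts equal to 0.394% to 0.467% of the members' counts. Copies annotated under other names were not included, so this share does not measure all reads counted for copies. The values below for genes with many copied windows are less certain than the others.

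Levels between genes were compared as CPM per kilobase of principal transcript, averaged over the 3 male Wiz+/+ E13.5 brains. The highest were Rplp1 (612 ± 7.93), a protein of the acidic stalk that recruits elongation factors, Rps4x (581 ± 14.8), an X-linked small subunit protein, Rps12 (542 ± 15.6), Rpl41 (536 ± 17.1), the smallest ribosomal protein, and Rpl4 (502 ± 15.8). The lowest were Rpl24 (59.8 ± 0.689), Rpl18 (65.1 ± 4.30), Rps15a (68.7 ± 2.03), Rpl29 (74.99 ± 2.71) and Rps20 (75.6 ± 0.640). Length enters this scale directly: the principal transcripts of Rps15a, Rps20 and Rpl18 are 5179, 3706 and 2989 bases long, against a median of 878 over the 75 genes. The longest was taken where a gene had several transcripts of equal principal rank, and a shorter one would give a higher level. Of Rpl24's windows 83.9% were copied, and of Rpl29's 68.0%. Dividing a gene's CPM by its number of windows without a copy instead, an alternative chosen after seeing the data for the 70 genes that had at least 50 such windows, raises genes with many copied windows by construction. Its 5 highest genes, Rps12, Rpl9, Rpl7a, Rpl10 and Rpl13, had 84.4% to 87.0% of windows copied, so the order of levels among heavily copied genes is not settled by these counts. In cerebellum Rplp1 was also first, and Rps4x, second in brain, was at rank 20. Across the 75 genes the log2 levels in the 2 tissues had a Pearson r of 0.906 and a Spearman rho of 0.897, both of which share transcript length.

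**Figure D2:**
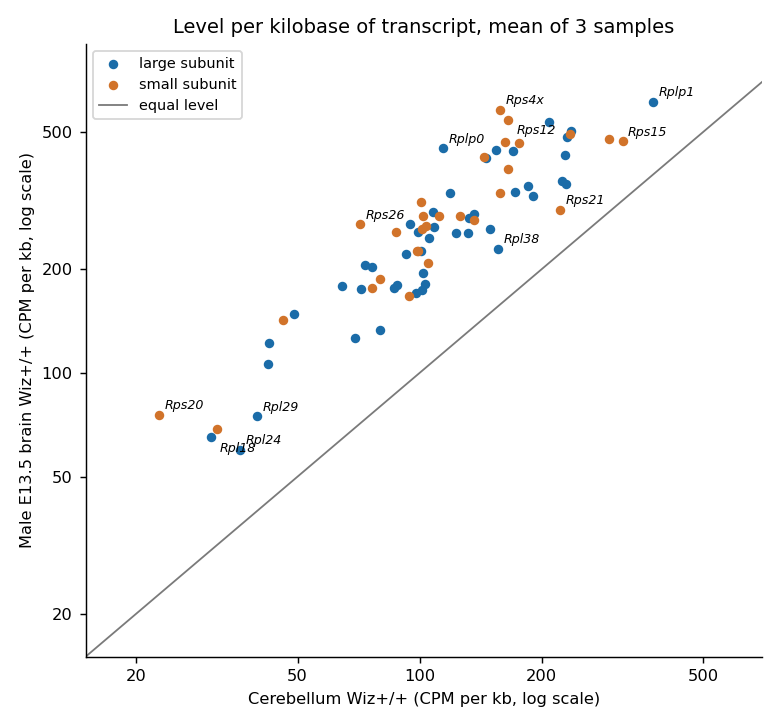
Mean level of each of the 75 genes in CPM per kilobase of principal transcript in male Wiz+/+ E13.5 brain (vertical) and Wiz+/+ cerebellum (horizontal), 3 samples each, both axes logarithmic; blue points are large subunit and orange points small subunit genes. All points lie above the line of equal level, and Rplp1 is highest in both tissues.

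To compare the tissues with sex and genotype held equal, male Wiz+/+ E13.5 brain was set against Wiz+/+ cerebellum. All 75 genes were higher in E13.5 brain and passed the threshold of an adjusted p of at most 0.05 with a fold change above 1.3 (edgeR's quasi-likelihood test, Benjamini-Hochberg over 16840 genes). Of all genes tested, 36.7% were called higher in E13.5 brain by the same rule. The median log2 fold change was 1.18 over the 75 genes, a fold of 2.27, and 0.015 over all genes tested. The lowest brain library lay above the highest cerebellum library for 75 of 75 genes, and 87.3% of all genes tested did not overlap in one direction or the other. Age, brain region and dissection differ between the groups along with any batch, and cannot be told apart. Scaling by total counts alone moved the median of all genes from 0.015 to 0.226 and that of the members to 1.40.

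The differences were not equal: the log2 fold change ran from 0.42 to 1.97, with a median standard error of 0.040. Rplp0 was at the top. This gene (ENSMUSG00000067274, chr5:115559467-115563727 in GRCm38, plus strand) encodes the base of the stalk, on which the Rplp1 and Rplp2 dimers sit. Its level was 593, 637 and 596 CPM in the 3 brains and 162, 148 and 155 CPM in the 3 cerebellums, a log2 fold change of 1.97 (95% confidence interval 1.88 to 2.06, adjusted p = 1.37e-15). Rps26 (ENSMUSG00000025362, chr10:128624534-128626747, minus strand) stands at the channel through which messenger RNA leaves the small subunit. It was at 184, 181 and 187 CPM in brain and 49.6, 47.4 and 48.8 CPM in cerebellum, a log2 fold change of 1.92 (1.83 to 2.01). Rps4x (ENSMUSG00000031320, chrX:102184941-102189394, minus strand) was at 550, 578 and 571 CPM against 156, 153 and 154 CPM, a log2 fold change of 1.88 (1.80 to 1.95). Each of these brain values is more than 3 times any cerebellum value of the same gene. Rps20, Rps12, Rps2, Rps18 and Rpl35 followed with log2 fold changes of 1.73, 1.71, 1.63, 1.62 and 1.59.

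At the other end was Rps21 (ENSMUSG00000039001, chr2:180257377-180258445, plus strand), a small protein of the small subunit. It was at 121, 111 and 119 CPM in brain and 90.5, 86.6 and 85.5 CPM in cerebellum, a log2 fold change of 0.42 (0.33 to 0.52, adjusted p = 2.72e-07). Rpl38 (ENSMUSG00000057322, chr11:114668524-114672331, plus strand), the gene mutated in Tail-short mice and needed for the translation of Hox messengers, was at 105, 104 and 105 CPM against 75.5, 69.6 and 69.2 CPM, a log2 fold change of 0.55 (0.46 to 0.64). Rps15 was at 237, 232 and 236 CPM against 168, 151 and 156 CPM, a log2 fold change of 0.57 (0.48 to 0.66). These groups also do not overlap, but the brain exceeds the cerebellum by less than the members' median. Rpl19, Rpl26, Rplp1, Rps29 and Rpl37 came next, with log2 fold changes of 0.62, 0.68, 0.70, 0.70 and 0.73.

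**Figure D3:**
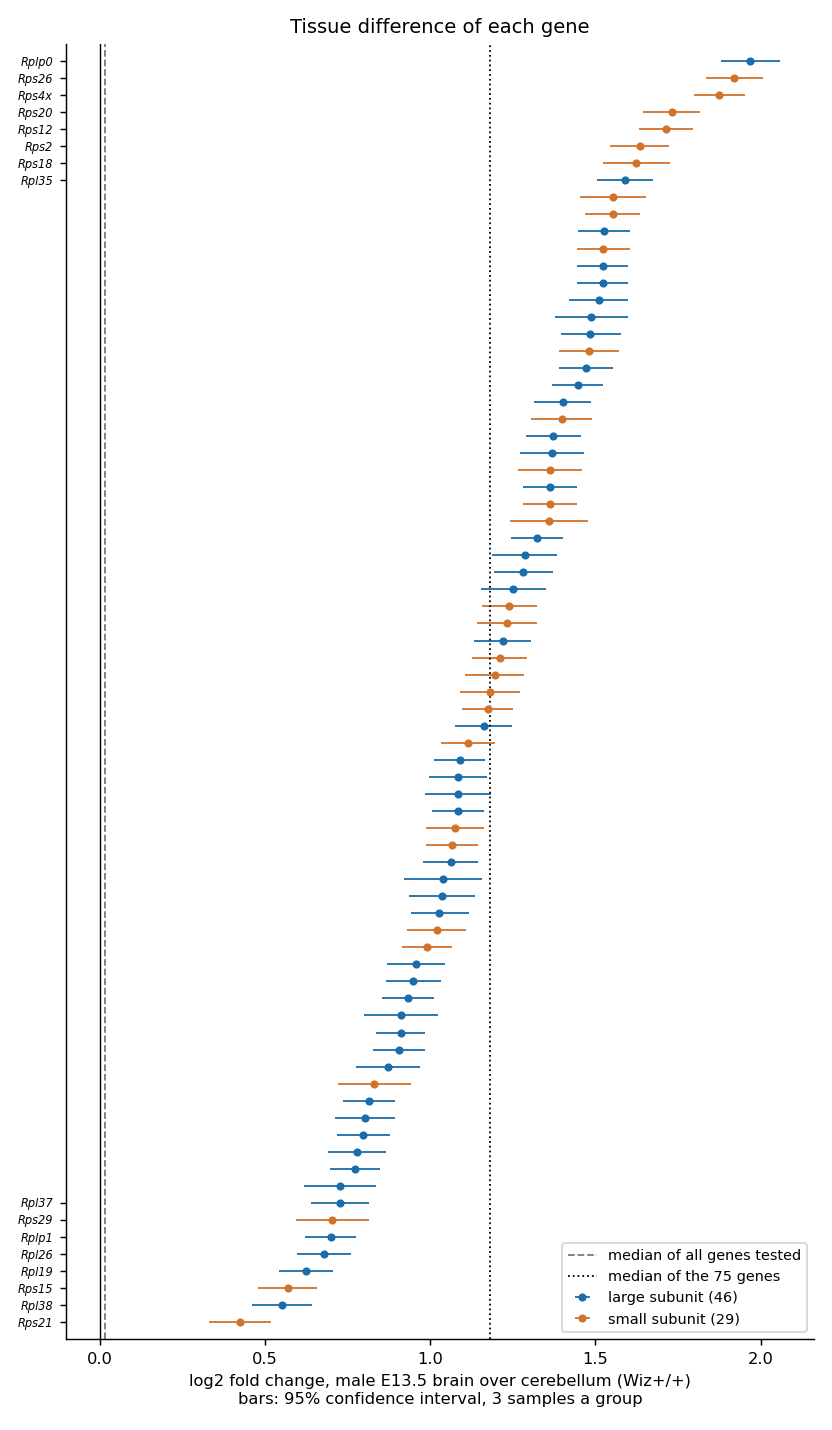
Log2 fold change of each of the 75 genes between male E13.5 brain and cerebellum of Wiz+/+ mice with its 95% confidence interval (3 samples a group), ordered by size, with the 8 largest and 8 smallest named; blue marks large subunit and orange small subunit genes. All 75 intervals lie above 0 and above the median of all genes tested (dashed), and they spread on both sides of the members' median of 1.18 (dotted).

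Proteins that sit together in the ribosome had unequal RNA differences. In the stalk, Rplp2 was at 207, 224 and 209 CPM in brain and 94.6, 83.7 and 89.4 CPM in cerebellum, a log2 fold change of 1.25 (1.15 to 1.35), between Rplp0 and Rplp1. The interval of Rplp1 (0.62 to 0.77) did not reach those of the other two. Rpl5 and Rpl11, which bind 5S ribosomal RNA and, outside the ribosome, the p53 regulator Mdm2, had log2 fold changes of 1.47 (1.39 to 1.55) and 1.08 (1.00 to 1.17). Rpl10, which joins the large subunit late in its assembly, was at 1.52, and Rpl3, which reaches the peptidyl transferase centre, at 0.77. Their windows were 84.4% and 85.4% copied. By subunit the medians were 1.08 over the 46 large subunit genes and 1.24 over the 29 small subunit genes, and both subunits spanned the range (0.55 to 1.97 and 0.42 to 1.92).

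Other genes chosen for what their proteins do lay between the extremes. Rps6, the substrate of the S6 kinases downstream of mTORC1, had a log2 fold change of 1.17, with 94.4% of its windows copied. Rps19, the gene first tied to Diamond-Blackfan anaemia, was at 1.55 and Rps14, the gene of the 5q- syndrome, at 1.02. Rpl22, whose loss in mice is known for its effect on T cells, was at 1.32 and has no copied window. Rpl39 was at 1.51 and Rpl41 at 1.36. Rps27a, made as a fusion with ubiquitin, was at 1.07 and Rpl13a, which also takes part in a complex that silences inflammatory messengers, at 1.06.

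Technical features of short genes were checked because the members are short and have a GC content of 41.3% to 60.8%. Among the other protein-coding genes short transcripts went the opposite way: the 114 under 600 bases had a median log2 fold change of -0.37, the 622 from 600 to under 1000 bases -0.23 and the 7660 of 3000 bases or more 0.057. The 17 members under 600 bases had a median of 1.04 and the 31 from 600 to under 1000 bases 1.25. Genes of lower GC content were higher in E13.5 brain, with medians of 0.19 for the 3264 other genes under 45% GC and -0.24 for the 3939 of 55% or more. The members had medians of 1.53 (3 genes) and 1.04 (17 genes) in these classes. The 10870 other protein-coding genes within the members' ranges of length and GC content had a median of -0.038, and 34.8% of them were called higher in E13.5 brain. Those ranges are wide and take in most of the 14927 other genes. The 497 other genes no longer than the members' median had a median of -0.30, and 25.8% of them were called higher. With offsets for GC content and length in the fit, the members' median was 1.22, with a range of 0.43 (Rps21) to 2.07 (Rplp0), and 75 of 75 passed.

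**Figure D4:**
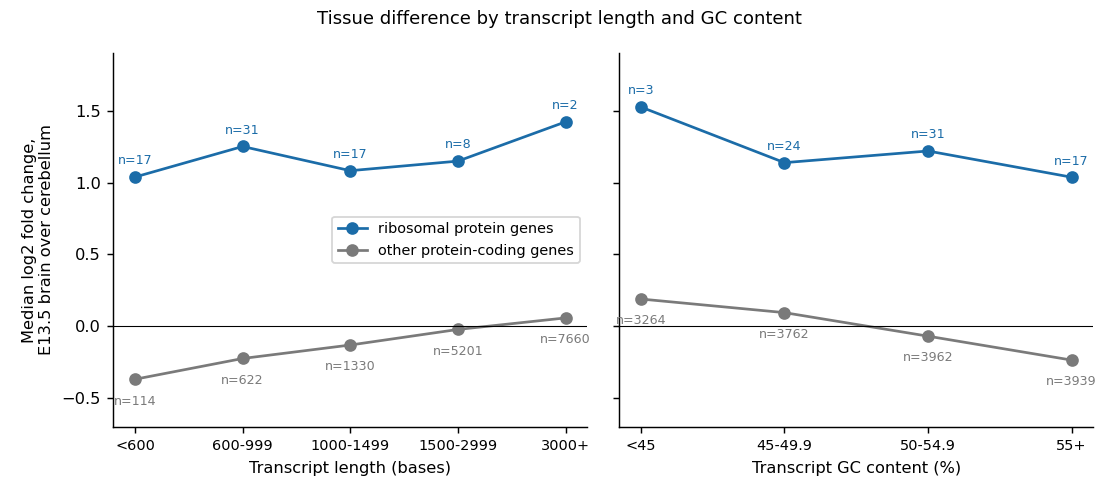
Median log2 fold change between male E13.5 brain and cerebellum of Wiz+/+ mice in classes of transcript length (left, bases) and GC content (right, percent) for ribosomal protein genes (blue) and other protein-coding genes (grey), with the number of genes beside each point. The blue medians lie between 1.04 and 1.53 in every class and the grey ones between -0.37 and 0.19.

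Within the 75 genes, the log2 fold change had a Pearson r of 0.199 (Spearman rho 0.183) with log2 transcript length, -0.220 (-0.156) with GC content, -0.047 (-0.049) with the share of copied windows and 0.104 (0.090) with the level per kilobase in brain. These are descriptions over genes that share the same 6 libraries. The 17 genes with under 20% of windows copied had a median log2 fold change of 1.09 (0.42 to 1.73), and the 28 with 50% or more had 1.13 (0.55 to 1.71). A long principal transcript lowers the share of copied windows. Rps15a, Rps20 and Rpl18 are in the first class with 155, 214 and 380 copied windows in transcripts of 5179, 3706 and 2989 bases. Rps20 has its largest value.

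The same measure was then taken in the animals of the other genotype. Between the WizMommeD30/+ brains and cerebellums, 3 of each, the median log2 fold change of the 75 genes was 1.19. Gene by gene the 2 sets of values had a Pearson r of 0.992 and a Spearman rho of 0.989 over the 75 genes. The largest difference between them was 0.13 (Rpl29). The unequal size of the differences thus recurred in other animals, in libraries that share the tissues and the annotation.

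The members did not stand alone among genes of protein synthesis. Of 22 translation factors and other genes with TOP messengers, 19 were past the threshold as higher in E13.5 brain and 0 as lower, with a median log2 fold change of 1.17. Hnrnpa1 was at 2.21, the elongation factor Eef1a1 at 2.02 and Eef2 at 0.61, and Eif4a2, at -0.41, did not pass. Of 11 tested ribosomal protein genes that the symbol rule leaves out, 9 were higher and 0 lower, with a median of 1.16. Rack1 was at 1.72, Rpsa at 1.66 and Fau at 0.51. Of 38 ribosome biogenesis genes, 29 were higher and 0 lower, with a median of 0.65. The nucleolar proteins Npm1, also among the TOP genes, and Fbl were at 1.74 and 1.33, and the RNA polymerase I factor Ubtf at -0.18.

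Other multi-subunit machines of short genes gave other values. Of all 16840 genes tested, 11700 were called in this comparison, 6183 of them as higher in E13.5 brain and the rest as lower. Of 77 mitochondrial ribosomal protein genes 5 were higher and 11 lower, with a median log2 fold change of -0.17. Of 73 tested nuclear genes of respiratory chain subunits 0 were higher and 68 lower, with a median of -0.97. Of 18 tested proteasome core subunit genes 8 were higher and 3 lower, with a median of 0.33. The 3 lower ones were the immunoproteasome subunits Psmb8, Psmb9 and Psmb10. Of 18 regulators in the MYC and mTORC1 list 5 were higher and 6 lower, with a median of 0.078. Myc, Mycl and Mycn were at 4.42, 4.26 and 3.75 and the translation repressor Eif4ebp1 at 2.22, while the mTORC1 inhibitor Deptor was at -2.41 and Rptor at -0.71.

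The cells of the tissues differ as well, and those values stand beside the result. All 14 markers of cycling cells were higher in E13.5 brain, and their summed level was 1566 to 1766 CPM in male Wiz+/+ brain and 109 to 116 CPM in Wiz+/+ cerebellum. Of 10 red blood cell markers 8 were higher, with sums of 689 to 978 and 161 to 249.9 CPM, and the embryonic globin Hbb-y was at 0 in every cerebellum. Of 10 E13.5 brain markers 7 were higher and 1, Pax6, lower. All 10 cerebellum markers and all 6 oligodendrocyte markers were lower, with oligodendrocyte sums of 68.7 to 79.4 and 5265 to 5660 CPM. Of 6 microglia markers 2 were lower and of 4 choroid plexus markers 3. The part of cell type in the members' difference was not tested.

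The genotypes were compared next, to see whether loss of 1 functional copy of Wiz moved the ribosomal protein genes. In no tissue or sex did a member pass the threshold, nor an adjusted p of 0.05 alone, in edgeR's test. DESeq2's test called 0 as well. In male E13.5 brain 0.184% of all 16848 genes tested passed the threshold, in female E13.5 brain 0.111% of 17152 and in cerebellum 0.832% of 15979, where 5.25% had an adjusted p of at most 0.05. The members were precisely measured in males. Their 95% confidence intervals lay within fold changes of 0.856 to 1.16 in male E13.5 brain and 0.847 to 1.13 in cerebellum, and within 0.879 to 1.23 in female brain, so that folds past 0.7 or 1.3 lay outside all 75 intervals in each comparison.

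**Figure D5:**
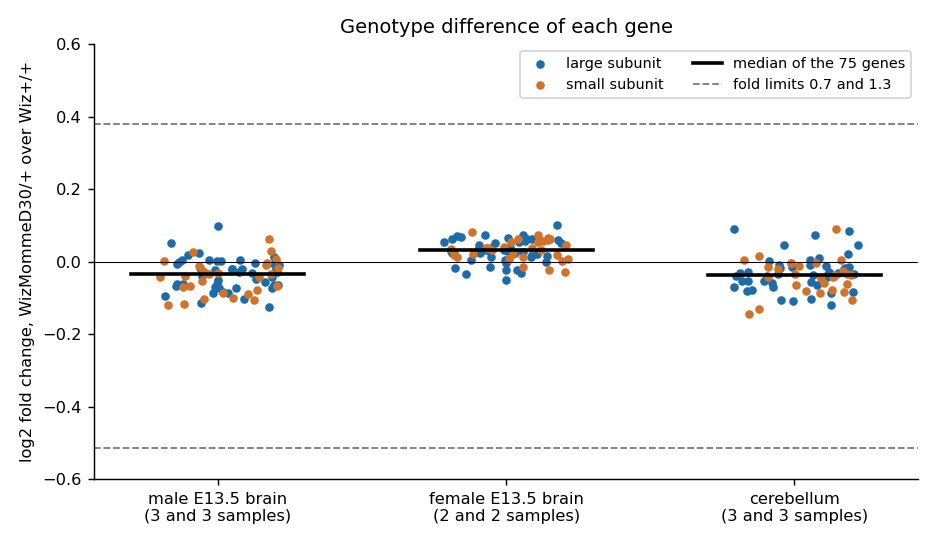
Log2 fold change of WizMommeD30/+ over Wiz+/+ for each of the 75 genes in the 3 genotype comparisons, with the median (bar) and the fold limits of 0.7 and 1.3 (dashed); blue marks large subunit and orange small subunit genes, and points are spread sideways for legibility only. All points lie between -0.144 and 0.102, with medians of -0.035, 0.032 and -0.035.

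In male E13.5 brain 59 of 75 genes were on the lower side in WizMommeD30/+, with a median log2 fold change of -0.035 against 6.07e-05 over all genes tested. At an unadjusted p under 0.05 there were 9 members (12%), all lower, and 8.45% of all genes. In 20 members (26.7%) the 2 groups did not overlap, all lower, and in 12.4% of all genes. Rps28 and Rpl28 were among the 5 members of smallest p, with log2 fold changes of -0.12 and -0.10 and adjusted p-values of 0.47 and 0.53. Rps28 was at 112.9, 120.0 and 110.0 CPM in Wiz+/+ and 102.3, 102.5 and 109.8 CPM in WizMommeD30/+, so the groups were adjacent but did not overlap. The Wiz+/+ replicate 2, the shallowest library of the series, had the highest of these values. Without it, 57 of 75 genes were on the lower side with a median of -0.023, and without WizMommeD30/+ replicate 3 the median was -0.051.

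Cerebellum gave 62 of 75 genes on the lower side and a median log2 fold change of -0.035, against -0.0031 over all genes tested. At an unadjusted p under 0.05 there were 15 members (20%), 12 lower and 3 higher, which is close to the 19.9% of all genes. Groups did not overlap in 15 members (20%) and in 24% of all genes. The smallest p-values belonged to Rpl41, Rps15a, Rps28, Rps16 and Rpl28. Rpl41 was at 124, 117 and 122 CPM in Wiz+/+ and 109.5, 112 and 116 CPM in WizMommeD30/+, so the groups do not overlap, with a log2 fold change of -0.11 and an adjusted p of 0.067. Rps15a was the only one of these 5 on the higher side, at 165, 164 and 164 CPM against 174, 174 and 176 CPM, a log2 fold change of 0.089 and an adjusted p of 0.068. Rps28 was at -0.14, Rps16 at -0.13 and Rpl28 at -0.10, with adjusted p-values of 0.076, 0.079 and 0.083. Without Wiz+/+ replicate 2, Rpl41 and Rps16 had an adjusted p of at most 0.05, and with no filter on low counts Rpl41, Rps16 and Rps28 did, in neither case past the fold limits. Without Wiz+/+ replicate 1 the median was -0.014 and without WizMommeD30/+ replicate 1 it was -0.013.

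Length and GC content moved with these small genotype values. In cerebellum the 480 other protein-coding genes no longer than the members' median had a median log2 fold change of -0.054, and the 3772 with a GC content of 55% or more one of -0.052, against 0.038 for the 3146 under 45%. With the offsets for GC content and length the members' median was -0.011, and 44 of 75 rather than 62 were on the lower side. In male brain the 503 other genes no longer than the members' median were at -0.013, and the corrected members' median was -0.026 with 57 on the lower side. Red blood cell markers moved in cerebellum too: 4 of 6 tested passed as higher in WizMommeD30/+, with sums over the 10 genes of 291 to 529.7 against 161 to 249.9 CPM, and the embryonic Hbb-y was at 0. Their part in the members' values was not tested.

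In female E13.5 brain the direction was the other one, with 63 of 75 genes on the higher side in WizMommeD30/+ and a median log2 fold change of 0.032, against 0.00015 over all genes tested. The count at an unadjusted p under 0.05 was 0 members and 6.4% of all genes. The groups did not overlap in 1 member, Rpl30 (1.33%), and in 36% of all genes. The 5 smallest p-values, of Rps13, Rplp1, Rpl7a, Rpl30 and Rpl18, had adjusted values of 0.89 to 0.90, with log2 fold changes of 0.052 to 0.10. Rplp1 was at 318 and 295 CPM in Wiz+/+ and 357 and 300.1 CPM in WizMommeD30/+. This direction rested on single libraries. Without WizMommeD30/+ replicate 1 the median was -0.042, with 69 of 75 on the lower side, and without Wiz+/+ replicate 2 it was -0.012, with 46 on the lower side. Without Wiz+/+ replicate 1 or WizMommeD30/+ replicate 2 it was 0.075 or 0.096. A test after such a removal rests on a lone sample that is assumed to vary like the other group.

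Libraries within a genotype differed as much as the genotypes did. In females, replicate 1 of either genotype was above the gene's mean for most members (68 of 75 in Wiz+/+ and 75 of 75 in WizMommeD30/+, by a median log2 deviation of 0.032 and 0.078). Replicate 2 was below it (0 and 1 of 75 above, by -0.060 and -0.055). The mitochondrial ribosomal protein genes shifted in the same libraries, by 0.029 and 0.060 in replicate 1 and by -0.046 and -0.030 in replicate 2, as did the proteasome genes, by 0.041 and 0.049 and by -0.049 and -0.039. Markers of cycling cells summed to 1494 and 1211 CPM in Wiz+/+ replicates 1 and 2 and to 1675 and 1590 CPM in WizMommeD30/+ replicates 1 and 2, and their part in the shift was not tested.

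With the E13.5 brains of both sexes in 1 fit, 47 of 75 genes were on the lower side, with a median log2 fold change of -0.013. The threshold was passed by 0 of them and by 0.346% of 17620 genes. The only member at an unadjusted p under 0.05 was Rps28 (1.33% of the members, 11.8% of all genes), at -0.084 with an adjusted p of 0.35. Rpl38, Rps7, Rpl34 and Rpl15 had the next smallest p-values. A term for the difference of the genotype effect between male E13.5 brain and cerebellum passed an adjusted p of 0.05 in 0 members and in 0.26% of 17337 genes. Rpl29 (0.14, 95% confidence interval -0.0095 to 0.28) and Rpl15 (-0.067) were among its 3 smallest p-values, with adjusted p-values of 0.55 and 0.67. The term for sex called 0 members and 0% of all genes (0 of 17620) in edgeR's test. Its estimates were above 0 for 68 of 75 members, with a median of 0.079, and Rpl10a (0.14) and Rps29 (0.19) were among the 3 smallest p-values, each with an adjusted p of 0.98.

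Few genes of the related lists passed the threshold. Translation factors and other TOP genes, ribosome biogenesis genes, mitochondrial ribosomal protein genes, proteasome core subunits and the MYC and mTORC1 regulators had 0 genes past the threshold in each of the 3 genotype comparisons, and their median log2 fold changes lay between -0.047 and 0.060. In cerebellum the nuclear respiratory chain genes had a median of -0.077, with 69 of 74 on the lower side, and 1 of them, Cox7b2, passed. In male and female brain their medians were -0.030 and -0.033, with 54 and 53 of 72 on the lower side and 0 past the threshold. Of the ribosomal protein genes outside the symbol rule, 1 passed in all 3 comparisons. This was Rps4l, a close relative of Rps4x with which it may share reads. Rps4l was at 17.2 to 19.0 CPM in male Wiz+/+ brain and 6.79 to 8.14 CPM in WizMommeD30/+, at 19.7 to 21.3 and 5.91 to 7.46 CPM in female brain and at 4.95 to 6.31 and 2.16 to 3.18 CPM in cerebellum. Its log2 fold changes were -1.26, -1.62 and -1.04, with adjusted p-values of 1.17e-05, 0.00998 and 0.000576, and no group overlapped its control. Rps4x itself was at -0.033, 0.060 and -0.0028 in the same order, with adjusted p-values of 0.81, 0.91 and 0.97.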

How the data were processed

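PolyA RNA was sequenced by the study as 100-base single-end reads (Illumina TruSeq libraries) in 16 samples. The authors mapped reads to mm10 with TopHat2 2.0.11 and counted them per Ensembl gene with HTSeq 0.6.1, and deposited raw counts; the counting mode, strand setting and treatment of reads with several matches are not given in the sources used here. The 3 ChIP and input samples were not analysed here. Lengths, GC content and coordinates came from GENCODE M21 (GRCm38), which matched 40340 of 41388 genes. Unmatched genes held at most 0.171% of a library's counts. Length and GC content were those of the principal transcript, the longest where several shared the best rank, and depend on that choice. Only the samples of a comparison entered its fit, made in edgeR 4.0.16 (TMM, filterByExpr with a minimum count of 10, quasi-likelihood test, two-sided, Benjamini-Hochberg over all genes tested), and called at an adjusted p of at most 0.05 with a fold change under 0.7 or over 1.3; interaction terms were called by adjusted p alone. DESeq2 1.42.0 and other scalings, filters, corrections and removals of single libraries were alternatives, and the fits were tested on simulated data. Offsets for GC content and length were lowess curves with a span of 0.3.

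The members and lists were chosen with earlier results of these data known. Genes named are the 5 highest and 5 lowest per kilobase, the 8 largest and 8 smallest tissue differences, the 5 smallest p-values of each genotype comparison, the 3 of each interaction, members chosen for their role, list examples and Rps4l. Some genes that this rule names are not reported here. Libraries of 16386029 to 50459755 counts gave a median standard error over the members of 0.040 for the tissue comparison and 0.065 for female brain on the log2 scale.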

Additional observations from a re-analysis of the deposited data

How the results depend on the processing

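All 75 genes stayed past the threshold in the tissue comparison, and 0 in the genotype comparisons, under every alternative run. The members' median tissue difference, 1.18 on the log2 scale, was 1.40 with scaling by total counts and 1.22 with GC content and length correction. With the replicate block and that correction together it was 1.22. Over the 17 members with under 20% copied windows it was 1.09, an alternative chosen after seeing the data. Some of those 17 have long principal transcripts, which lower that share. Without 1 library at a time the median of the 75 genes was 1.16 to 1.21. Of 204 alternatives for these summary values 199 moved them by less than the spread between replicates or within 1.5 times. The other 5 moved them further. None of 946 for single named genes moved one across the threshold. In the genotype comparisons the named genes lay far inside the fold limits, so that count says little there. In female brain the values of Rps13, Rplp1, Rpl7a and Rpl18 changed sign between alternatives (Rplp1 from -0.032 to 0.224), and that of Rpl30 did not. Leaving out 1 library moved the genotype median between -0.051 and -0.023 in male brain, -0.042 and 0.096 in female brain, -0.052 and -0.013 in cerebellum and -0.037 and 0.005 over both sexes.

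Over all genes, the deviations of samples that shared a replicate number had correlations of -0.266 to 0.001 in male brain. In cerebellum they were at -0.087 to -0.007. Samples of different numbers had -0.108 to 0.244 in male brain and -0.125 to 0.139 in cerebellum, so the numbers were not taken as pairs. With 2 libraries per group the female deviations are mirror images, so -0.051 for the same number forces 0.051 for different numbers. That is 1 value and does not settle pairing in female brain. Over the members, female replicate 1 of both genotypes was high (median deviations of 0.032 and 0.078) and replicate 2 of both was low (-0.060 and -0.055). The mitochondrial ribosomal protein and proteasome genes shifted the same way in these libraries. With the number as a replicate block, the tissue median was 1.18 with 75 genes past the threshold, and 0 genes passed in each genotype comparison. The block with GC content and length correction was not run for the interaction terms. With 2 libraries per group in females, small differences were not detectable: the widest intervals there reached folds of 0.879 and 1.23.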

Other observations

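Rpl34, a large subunit gene, stood at the upper end of the members in both male comparisons of genotype, with a log2 fold change of 0.098 in E13.5 brain and 0.090 in cerebellum, against members' medians of -0.035 in each. Across the 75 genes the genotype values of male brain and cerebellum had a Pearson r of 0.536 and a Spearman rho of 0.445, those of male and female brain 0.176 and 0.148, and those of female brain and cerebellum 0.231 and 0.163. These are descriptions: the pairs share no sample, but the genes share their base composition. GC content had an r of -0.257 with the values in male brain, -0.383 with those in cerebellum and 0.128 with those in female brain.

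Wiz lies on chromosome 17 (chr17:32354055-32389439 in GRCm38), and 6 members lie on the same chromosome, Rps28 closest at a distance of 1.43 Mb and Rpl36 farthest at 24.2 Mb. Rps28 had log2 fold changes of -0.12, -0.028 and -0.14 in male brain, female brain and cerebellum. Rps18, at 1.56 Mb, had -0.066, 0.018 and -0.034 in the same order. None of the 6 passed the threshold in edgeR's test in these comparisons.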
